A study of Mus musculus with 18 samples.

Results

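Hmgcs1, Idi1, Fdft1, Sqle, Cyp51 and Dhcr7, which encode enzymes of cholesterol synthesis, and Scarb1, which encodes a receptor for cholesterol uptake, were followed in cultured mouse testes. They were chosen by name, by matching mouse gene numbers to these symbols, and make up 7 of the 22657 genes in the expression table. RNA-seq was performed on 18 samples of ICR mouse testis in 6 groups of 3. In the groups A0, A10 and A50 the mice received no busulfan, an alkylating anti-cancer drug that damages the germ cells of the testis. In B0, BA10 and BA50 they received busulfan once at 3 weeks of age, at 40 μg per g of body weight, and all testes were taken 2 weeks later. The testes were then cultured for 48 h in DMEM/F12 with 10% fetal bovine serum, and alginate oligosaccharides (AOS), breakdown products of a seaweed polysaccharide, were added at 0, 10 or 50 μg/mL as the group name gives. The series' design text gives the same AOS amounts per kg of body weight, and the concentrations in the medium are used here. The labels do not say whether the 3 samples of a group came from separate animals, so the p-values measure the spread between these samples. Each sample was whole testis, so that fewer cells of a type and less RNA per cell cannot be told apart.

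Cells make cholesterol from acetyl-CoA through mevalonate, farnesyl diphosphate, squalene and lanosterol. When sterols in the endoplasmic reticulum run low, the transcription factor SREBP2 is released from its membrane and switches on the enzymes of this route. In the testis, Leydig cells turn cholesterol into testosterone and take much of it from lipoproteins through SR-BI, the product of Scarb1. Sertoli cells use SR-BI to take up dying germ cells, and meiotic germ cells accumulate sterol intermediates formed downstream of CYP51.

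Upstream sequence was read for the members with a promoter entry. It is shown for Hmgcs1, Idi1 and Cyp51, whose levels went up and down together among samples of the same group, as described further on. That choice was made from these same data, and the pattern rests in part on single samples. Dhcr7 was also counted, though its r with Hmgcs1 within groups was 0.07. The RefSeq promoter table (GRCm38.p6) held entries for 4 of the 7 genes, namely Hmgcs1, Idi1, Cyp51 and Dhcr7, with 6 promoters in all. The 250 bases before the start site are shown for Hmgcs1 at chr13:119690101-119690350 (plus strand), Idi1 at chr13:8885356-8885605 (plus strand) and Cyp51 at chr5:4104698-4104947 (minus strand). Capitals mark the sterol element CACNCCAC, a form bound by SREBPs, and the CCAAT box, each searched on both strands, so that a CCAAT box on the other strand reads ATTGG.
Hmgcs1: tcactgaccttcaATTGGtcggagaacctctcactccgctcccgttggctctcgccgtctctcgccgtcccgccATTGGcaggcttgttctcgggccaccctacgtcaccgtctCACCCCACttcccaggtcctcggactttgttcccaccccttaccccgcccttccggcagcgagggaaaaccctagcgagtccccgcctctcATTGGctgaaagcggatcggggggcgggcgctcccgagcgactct
Idi1: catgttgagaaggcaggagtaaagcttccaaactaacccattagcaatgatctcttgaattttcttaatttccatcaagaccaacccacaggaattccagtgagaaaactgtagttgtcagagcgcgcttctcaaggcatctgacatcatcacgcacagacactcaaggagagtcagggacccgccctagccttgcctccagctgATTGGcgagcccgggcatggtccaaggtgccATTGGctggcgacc
Cyp51: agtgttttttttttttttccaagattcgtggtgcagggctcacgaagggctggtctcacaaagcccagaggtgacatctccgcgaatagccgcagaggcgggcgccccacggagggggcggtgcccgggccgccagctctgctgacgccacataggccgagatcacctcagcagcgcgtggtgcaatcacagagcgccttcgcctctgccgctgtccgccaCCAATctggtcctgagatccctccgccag
The form CACNCCAC of the sterol element was found in 1 of the 6 promoters, that of Hmgcs1, with its first base at position -136 from the start site. Over the same length, 5.29% of all 32851 promoters in the table held it. Other forms of the sterol element were not searched, so a promoter without this match may hold another form. The CCAAT box was found at all 4 genes and in 4 of the 6 promoters, against 33.8% of all promoters. The GC box GGCGGG was also found at all 4 genes, in 5 of the 6 promoters, against 32.5% of all. These are matches of letters in a window and say nothing about binding.

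Values were given by the authors as FPKM, fragments scaled to the length of the transcript and to the mapped fragments of the sample, so that levels can be set against each other between genes. The sum of FPKM was 463970 to 511274 per sample, and 14291 to 15040 genes reached 1 FPKM. The number of reads per sample is not known. Spermatocyte markers checked the busulfan labels: all 7 fell with busulfan at each AOS concentration, with a median log2 change of -2.70 in the average over concentrations. Not all germ cell markers fell, as all 8 spermatid markers had positive log2 changes in that average (median 0.39). Leydig cell markers were present (Star, which brings cholesterol into mitochondria, 202 FPKM in A0), and so were those of Sertoli cells and spermatids. A10 replicate 3 stood apart, with correlations of 0.929 and 0.941 to the other A10 samples, and its 10 Sertoli markers summed to 899 FPKM against 1668 and 1779 FPKM in those samples. The B0 samples carried more RNA of fat cell markers (a sum over 7 genes of 196 to 805 FPKM, against 62.4 to 84.7 FPKM in A0) and of simple epithelium markers (79.4 to 203 FPKM over 5 genes, against 25.4 to 46.6 FPKM).

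All 7 genes were well expressed. Mean levels over the 18 samples were 68.0 FPKM for Fdft1, 65.9 FPKM for Scarb1, 65.7 FPKM for Hmgcs1, 36.4 FPKM for Sqle, 24.1 FPKM for Cyp51, 21.7 FPKM for Dhcr7 and 15.7 FPKM for Idi1. These means lay above those of 94.3% of all genes for Fdft1 and of 74.1% for Idi1. Together the 7 genes made up 0.0488% to 0.0764% of the FPKM sum of a sample. The ratio of the highest to the lowest sample was 1.86 for Sqle and 4.11 for Idi1, with the other 5 in between. When the 6 groups were ordered by mean for each gene, neighbouring groups overlapped in every case. The highest and the lowest group did not overlap for Sqle (A10 and A0), Fdft1 (A50 and A0), Cyp51 (BA10 and A0) and Scarb1 (BA10 and A10). Their means were 31.4 and 18.2 FPKM for Cyp51 and 84.3 and 49.4 FPKM for Scarb1. These pairs were picked by their means from the 6 groups, which favours separation, and the share of all genes was not computed. Pairs of groups compared without such a choice separated for 11.4% to 41.7% of all genes.

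**Figure D1:**
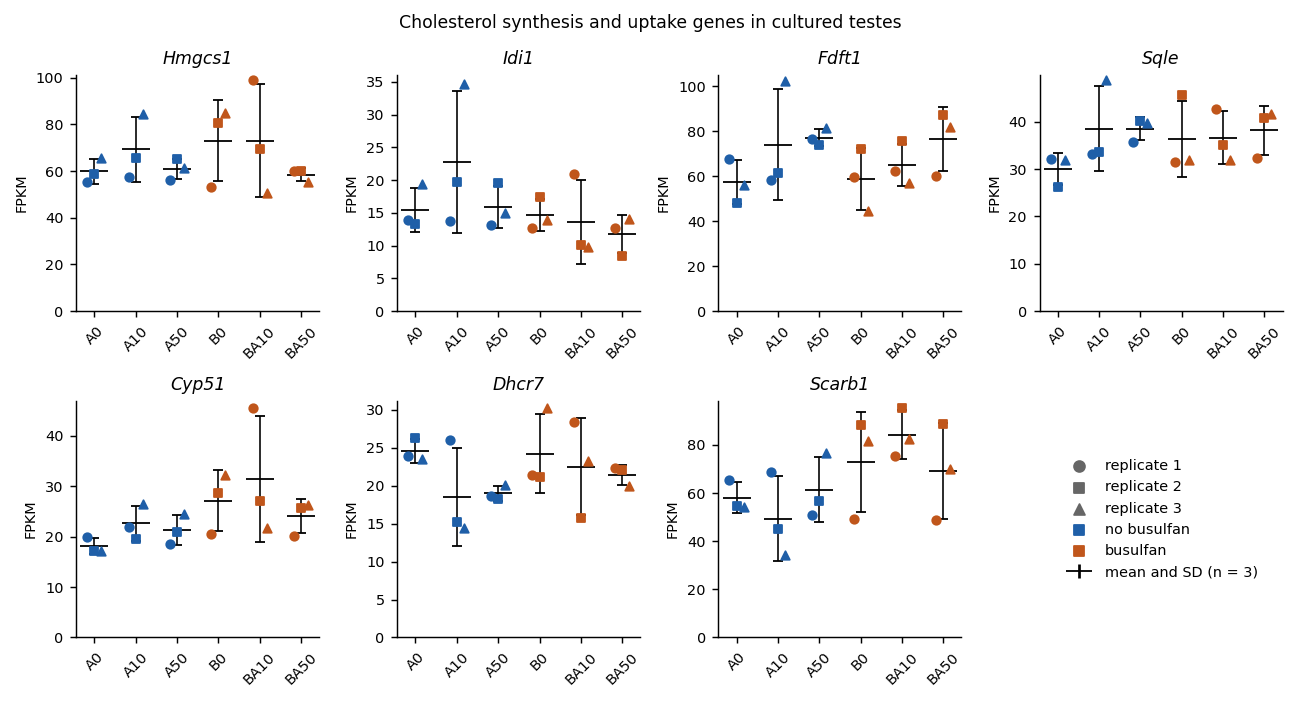
FPKM of the 7 genes in each of the 18 samples by group, with replicates as symbols, groups without busulfan in blue and with busulfan in orange, and bars for the mean and SD (n = 3). Most groups overlap, and single samples such as A10 replicate 3 (Idi1 34.7 FPKM) and BA10 replicate 1 (Cyp51 45.5 FPKM) lie far from the others of their group.

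Hmgcs1 (chr13:119690351-119708260, plus strand) encodes cytosolic HMG-CoA synthase of the early mevalonate route. Without busulfan it measured 55.4, 58.6 and 65.6 FPKM in A0, 57.6, 65.7 and 84.4 FPKM in A10, and 56.3, 65.1 and 61.2 FPKM in A50. With busulfan it measured 53.2, 80.7 and 85.0 FPKM in B0, 98.8, 69.6 and 50.7 FPKM in BA10, and 60.0, 59.8 and 55.1 FPKM in BA50. The groups overlapped throughout, and the widest spread was within BA10, which held both the highest and the lowest of the 18 values. The average busulfan log2 change was 0.08 ± 0.12 (SE). Its exons share 557 of their 4594 bases with Gm48342 on the other strand, for which no FPKM was given.

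Idi1 (chr13:8885606-8892396, plus strand) encodes isopentenyl diphosphate isomerase, which prepares the building blocks of farnesyl diphosphate. Its values were 13.9, 13.3 and 19.3 FPKM in A0, 13.7, 19.7 and 34.7 FPKM in A10, and 13.2, 19.5 and 15.0 FPKM in A50. After busulfan they were 12.8, 17.4 and 13.9 FPKM in B0, 21.0, 10.2 and 9.73 FPKM in BA10, and 12.8, 8.45 and 14.02 FPKM in BA50. The highest sample was A10 replicate 3 and the 3 lowest were all busulfan samples, but each busulfan group overlapped its control group. The exons of Idi1 share 323 of their 3505 bases with Gm48574 on the other strand, for which no FPKM was given.

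Fdft1 (chr14:63145150-63181687, minus strand) encodes squalene synthase, the first enzyme of the branch used for sterols alone. It measured 67.5, 48.1 and 56.1 FPKM in A0, 58.2, 61.6 and 102 FPKM in A10, and 76.3, 73.7 and 81.4 FPKM in A50. In the busulfan groups it measured 59.5, 71.9 and 44.6 FPKM in B0, 62.4, 75.5 and 56.9 FPKM in BA10, and 60.2, 87.0 and 81.7 FPKM in BA50. All 3 A50 values lay above all 3 A0 values, while every busulfan group overlapped its control group. The exons of Fdft1 share 774 of their 4227 bases with Ctsb, a cathepsin gene on the other strand with a mean of 787 FPKM. The sources used here do not state whether the libraries kept the strand, so reads of the shared bases cannot be assigned with certainty. The same holds for the shared bases of Hmgcs1, Idi1 and Cyp51. Fdft1 and Ctsb levels correlated with r = -0.61 over the 18 samples.

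Sqle (chr15:59315092-59331193, plus strand) encodes squalene epoxidase, a rate-limiting step of the sterol branch. Its values were 32.1, 26.2 and 31.8 FPKM in A0, 33.1, 33.6 and 48.8 FPKM in A10, and 35.7, 40.1 and 39.7 FPKM in A50. They were 31.6, 45.7 and 31.9 FPKM in B0, 42.8, 35.0 and 31.9 FPKM in BA10, and 32.2, 40.8 and 41.6 FPKM in BA50. A0 was the lowest group, and both A10 and A50 lay above it without overlap.

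Cyp51 (chr5:4080674-4104697, minus strand) encodes lanosterol 14α-demethylase, which acts on lanosterol in the sterol branch. Without busulfan it measured 20.02, 17.2 and 17.2 FPKM in A0, 21.9, 19.5 and 26.5 FPKM in A10, and 18.5, 21.0 and 24.4 FPKM in A50. With busulfan it measured 20.5, 28.7 and 32.3 FPKM in B0, 45.5, 27.0 and 21.7 FPKM in BA10, and 20.2, 25.8 and 26.4 FPKM in BA50. The lowest B0 sample lay just above the highest A0 sample, and the other busulfan groups overlapped their control groups. Its exons share 166 of their 4415 bases with Akap9 on the other strand, which averaged 9.16 FPKM and correlated with Cyp51 with r = 0.06.

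Dhcr7 (chr7:143823167-143848410, plus strand) encodes 7-dehydrocholesterol reductase, which completes one of the routes to cholesterol. It measured 23.9, 26.4 and 23.5 FPKM in A0, 26.0, 15.3 and 14.4 FPKM in A10, and 18.7, 18.2 and 20.2 FPKM in A50. It measured 21.4, 21.1 and 30.3 FPKM in B0, 28.4, 15.7 and 23.3 FPKM in BA10, and 22.4, 22.1 and 19.95 FPKM in BA50. All 3 A50 values lay below all 3 A0 values, in the direction opposite to Fdft1 and Sqle.

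Scarb1 (chr5:125277087-125341094, minus strand), the HDL receptor, measured 65.6, 54.4 and 54.3 FPKM in A0, 69.0, 45.01 and 34.2 FPKM in A10, and 50.8, 56.7 and 76.7 FPKM in A50. With busulfan it measured 49.0, 88.1 and 81.4 FPKM in B0, 75.2, 95.2 and 82.5 FPKM in BA10, and 48.9, 88.8 and 70.0 FPKM in BA50. All 3 BA10 values lay above all 3 A10 values. In B0 and BA50, replicate 1 lay below every sample of the control group and the remaining samples lay above the control median.

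Compared to the controls, busulfan left most of these genes within the spread of the samples, with Cyp51 higher by 1.29-fold on average. Changes were tested with limma on log2(FPKM + 1) over 15790 genes, a gene being called at a Benjamini-Hochberg adjusted p of at most 0.05. Averaged over the 3 AOS concentrations, 1 of the 7 genes was called, when 38.1% of all genes tested were called. The log2 change of Cyp51 was 0.37 ± 0.13 (SE), with a 95% interval of 0.09 to 0.65 and an adjusted p of 0.0388 by limma. Scarb1 had a log2 change of 0.42 ± 0.16 (SE), 1.33-fold, at an adjusted p of 0.0503 by limma, just outside the limit. Idi1 had a log2 change of -0.39 ± 0.18 (SE), with a 95% interval of -0.78 to 0.01 and a limma adjusted p of 0.111. For Dhcr7 the log2 change was 0.13 ± 0.12, for Sqle 0.06 ± 0.10 and for Fdft1 -0.05 ± 0.13 (all SE). The intervals of Hmgcs1, Sqle, Fdft1 and Dhcr7 all lay between -0.32 and 0.40. The median log2 change of the 7 genes was 0.08, against 0.01 for all genes tested.

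The same average was tested for each gene by an exact permutation test of the samples within each AOS concentration, two-sided, with 8000 arrangements. The exact p was 0.014 for Cyp51, 0.0353 for Scarb1 and 0.0635 for Idi1, and 0.299 to 0.689 for the remaining 4, without adjustment for the 7 tests. The call of Cyp51 was close to its limit. With the replicate number as a replicate block its adjusted p became 0.0562 by limma, and with only AOS 10 and 50 in the average the log2 change was 0.28 at a limma adjusted p of 0.227. It was lost when any 1 of 11 samples was left out, namely A0 replicates 2 and 3, A10 replicates 1 and 2, A50 replicates 1 and 2, B0 replicates 2 and 3, BA10 replicate 1 and BA50 replicates 2 and 3, with log2 changes of 0.27 to 0.44 over all 18 omissions. Scarb1 passed the limit without A10 replicate 1, A50 replicate 3, B0 replicate 1 or BA50 replicate 1 (log2 changes 0.50, 0.47, 0.50 and 0.49). Idi1 passed it, as lower, without A10 replicate 1 (log2 change -0.49) or BA10 replicate 1 (-0.50). Neither gene was called in the remaining omissions, 14 of 18 for Scarb1 and 16 of 18 for Idi1. Without A10 replicate 3, the log2 change was 0.34 for Scarb1 and -0.27 for Idi1 (limma adjusted p 0.0909 and 0.2).

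**Figure D2:**
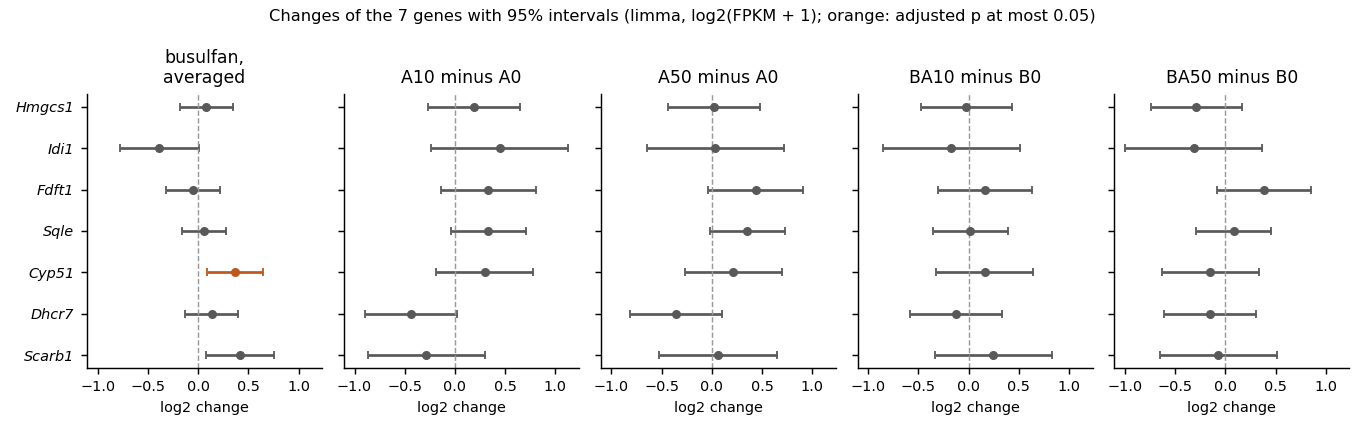
Log2 changes of the 7 genes on the log2(FPKM + 1) scale, with limma 95% intervals, for busulfan averaged over the AOS concentrations and for each AOS comparison; orange marks an adjusted p of at most 0.05. Cyp51 in the busulfan average (0.37) is the only orange point, and most intervals include 0.

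At each AOS concentration taken alone, none of the 7 genes was called for busulfan by limma, when 13.8% of all genes were called in B0 against A0, 18.9% in BA10 against A10 and 19.9% in BA50 against A50. At an unadjusted p under 0.05, the counts were 1, 1 and 0 of the 7. The log2 change of Cyp51 was 0.53 ± 0.23 without AOS, 0.40 ± 0.23 at AOS 10 and 0.17 ± 0.23 at AOS 50 (SE). That of Scarb1 was 0.28 ± 0.27, 0.81 ± 0.27 and 0.15 ± 0.27 (SE), with a limma adjusted p of 0.0511 at AOS 10. For Idi1 the log2 changes were -0.06 ± 0.32, -0.68 ± 0.32 and -0.42 ± 0.32 (SE). At AOS 10, Scarb1 passed the limit without A10 replicate 1 (log2 change 1.08), and Idi1 did so without A10 replicate 1 (-0.98) or BA10 replicate 1 (-1.02). Without A10 replicate 3, the sample that stood apart, the log2 change at AOS 10 was 0.58 for Scarb1 and -0.34 for Idi1, and without BA10 replicate 1 that of Cyp51 was 0.10. Complete separation of the 3 values was seen for Cyp51 in B0 against A0 (33.2% of all genes), for Scarb1 in BA10 against A10 (31.2% of all genes), and for no gene of the 7 in BA50 against A50 (41.7% of all genes). With 3 against 3, an exact test cannot give a p below 0.1.

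AOS was added to ask whether it changes expression in the testis with and without busulfan. No gene of the 7 was called by limma in A10 against A0, A50 against A0, BA10 against B0 or BA50 against B0. The share of all genes called was 0% in A10 against A0, 0% in A50 against A0, 0.0253% in BA10 against B0 and 0.095% in BA50 against B0. None of the 7 reached an unadjusted p under 0.05 in any of the 4. In testes without busulfan, the values that separated were those of Sqle, Fdft1 and Dhcr7. Sqle had a log2 change of 0.33 ± 0.17 in A10 and 0.35 ± 0.17 in A50 (SE), with limma adjusted p-values of 0.348 and 0.336. Fdft1 had a log2 change of 0.33 ± 0.22 in A10 and 0.44 ± 0.22 in A50 (SE), the second with a 95% interval of -0.03 to 0.91. Dhcr7 had a log2 change of -0.44 ± 0.21 in A10 and -0.36 ± 0.21 in A50 (SE). The 3 values of Sqle separated in A10 against A0 (20.1% of all genes did), and those of Sqle, Fdft1 and Dhcr7 in A50 against A0 (40.8% of all genes did), so 3 of 7 is close to the background. The log2 change of Idi1 in A10, 0.44 ± 0.32 (SE), was 0.10 without A10 replicate 3, and that of Fdft1 in A10 was 0.08 without it. That of Sqle in A10 was 0.15 and that of Dhcr7 -0.29 without it, and Dhcr7 ran from -0.69 to -0.29 over the omissions of 1 sample.

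After busulfan, the log2 changes with AOS 10 ran from -0.17 ± 0.32 for Idi1 to 0.25 ± 0.27 for Scarb1 (SE), and those with AOS 50 from -0.32 ± 0.32 for Idi1 to 0.38 ± 0.22 for Fdft1 (SE). No values of the 7 genes separated in BA10 against B0 (11.4% of all genes did) or in BA50 against B0 (24.6% of all genes did). Whether the AOS change differed with busulfan was tested by the difference of the 2 changes, and no gene of the 7 was called by limma at AOS 10 (0% of all genes) or AOS 50 (0% of all genes), with none at an unadjusted p under 0.05. These differences in log2 change ran from -0.62 ± 0.45 for Idi1 to 0.53 ± 0.39 for Scarb1 at AOS 10, and from -0.37 ± 0.32 for Cyp51 to 0.20 ± 0.30 for Dhcr7 at AOS 50 (SE). Without A10 replicate 3, those at AOS 10 were -0.27 for Idi1 and 0.30 for Scarb1. The intervals were wide, reaching from -1.58 to 0.35 for Idi1 at AOS 10.

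Among the remaining enzymes of the route, Lbr was the one with a busulfan difference at every AOS concentration. Of the 15 other synthesis enzymes, all tested, 1 was higher (Ebp), 1 was lower (Lbr) and 13 were not called in the busulfan average, with a median log2 change of 0.13. Of all genes tested, 13.3% were called higher and 24.8% lower in this average, so 2 of 15 lay below the background. Lbr, the lamin B receptor, which also carries a sterol reductase domain, fell with a log2 change of -1.21 ± 0.08 (SE, limma adjusted p 8.68e-09), from 11.9 FPKM in A0 to 5.66 FPKM in B0. In the average, Lbr was called in each of the 18 omissions of 1 sample. Ebp, the sterol isomerase after it, had a log2 change of 0.38 ± 0.11 (SE, limma adjusted p 0.014). Tm7sf2, the sterol reductase that shares its reaction with Lbr, was called in BA10 against A10 with a log2 change of 1.42 ± 0.40 (SE) at means of 2.24 FPKM in BA10 and 0.113 FPKM in A10, where 2 of 3 samples were listed at 0. This call was lost without A10 replicate 3 or BA10 replicate 1, and when only BA10 and A10 entered the fit (limma adjusted p 0.0767). The 4 enzymes of the isoprenoid branch held no call (2 at an unadjusted p under 0.05), and its most highly expressed members Ggps1 and Dhdds, which build geranylgeranyl diphosphate and dolichol, had log2 changes of 0.16 ± 0.07 and 0.07 ± 0.08 (SE).

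Among 7 genes of sterol sensing, Scap and Srebf1 were higher in the busulfan average and 5 were not called, against 13.3% of all genes called higher. Scap, the escort of SREBPs, had a log2 change of 0.36 ± 0.11, and Srebf1, which encodes SREBP1, one of 0.25 ± 0.07 (SE). The call of Scap was lost with a common FPKM sum (limma adjusted p 0.0538). Insig2, which holds SCAP in the endoplasmic reticulum, was lower in BA50 against A50 (log2 change -0.29 ± 0.09, SE), a call lost when any 1 of the 6 samples was left out and with quantile normalization (limma adjusted p 0.0612). Of 14 uptake and transport genes tested, of 16 listed, Cd36, Npc1 and Lipa were higher and Lrp8 was lower, a share called below the 38.1% of all genes. Npc1, which exports cholesterol from lysosomes, rose with a log2 change of 0.44 ± 0.06 (SE, limma adjusted p 7.02e-05), and was called at each AOS concentration. Cd36, a scavenger receptor related to Scarb1, had a log2 change of 0.49 ± 0.11, and Lipa, lysosomal acid lipase, one of 0.32 ± 0.11 (SE). Lrp8, a lipoprotein receptor that binds reelin, had a log2 change of -0.63 ± 0.14 (SE).

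Of 6 storage genes, 3 were higher and 3 were not called, against 13.3% of all genes called higher. Plin2, which coats lipid droplets, rose from 144 FPKM in A0 to 220 FPKM in B0 and was called at each AOS concentration, with an average log2 change of 0.55 ± 0.07 (SE, limma adjusted p 8.64e-06). Nceh1, a cholesteryl ester hydrolase, had a log2 change of 0.39 ± 0.11, and Soat1, which makes cholesteryl esters, one of 0.28 ± 0.08 (SE). Of 5 efflux genes tested, of 7 listed, Nr1h2, which encodes the oxysterol receptor LXRβ, was higher with a log2 change of 0.22 ± 0.07 (SE). Pdzk1, the scaffold of SR-BI in liver, and Scarb2, a lysosomal relative, had log2 changes of 0.45 ± 0.18 and 0.26 ± 0.13 (SE) and were not called (1 of them at an unadjusted p under 0.05). Calls of Lipa and Nr1h2 were lost in 12 and 8 of the 18 omissions of 1 sample, respectively, and that of Lipa also with the replicate block (limma adjusted p 0.0586), with no filter (0.0524) and with a common FPKM sum (0.0864). The call of Nr1h2 was also lost with a common FPKM sum (limma adjusted p 0.0752), and those of Nr1h2 and Nceh1 with only AOS 10 and 50 in the average (0.0754 and 0.0668). No gene of these lists was called in any AOS comparison. The median log2 change in the busulfan average was 0.18 for sterol sensing, 0.22 for uptake, 0.22 for efflux and 0.30 for storage, against 0.01 for all genes tested.

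**Figure D3:**
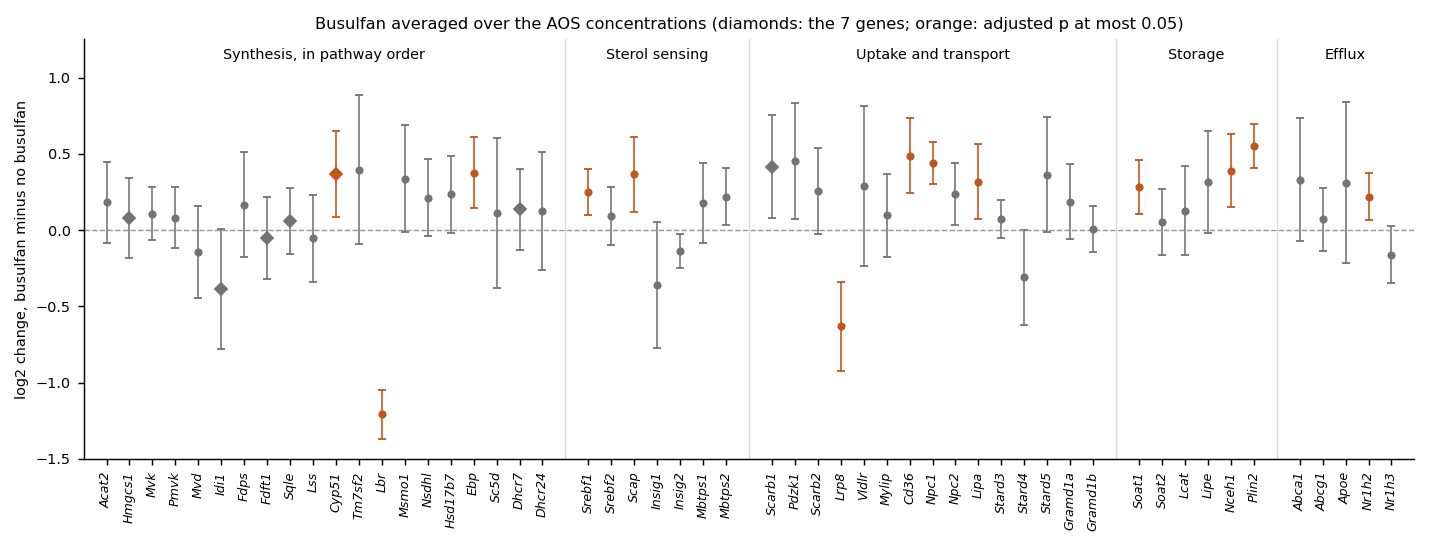
Log2 change with busulfan, averaged over the AOS concentrations, with limma 95% intervals, for most of the synthesis enzymes in pathway order and for genes of sterol sensing, uptake, storage and efflux; diamonds mark the 7 genes and orange an adjusted p of at most 0.05. Lbr (-1.21) and Lrp8 (-0.63) lie lowest, and Plin2 (0.55) is the highest called point.

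Within groups, several pairs of the 7 genes varied together from sample to sample. The following correlations are over the 18 samples on log2(FPKM + 1), and are descriptions, as the samples share groups and 1 table. After removing group means, Hmgcs1 correlated with Cyp51 (r = 0.81), Idi1 (r = 0.73) and Sqle (r = 0.61), and Sqle correlated with Fdft1 (r = 0.80). Idi1 correlated with Cyp51 within groups (r = 0.55), but less over all samples (r = 0.17). Fdft1 correlated less with Hmgcs1 (r = 0.20), Idi1 (r = 0.33) and Cyp51 (r = 0.28) within groups. BA10 replicate 1 lay above its group mean for Hmgcs1, Idi1 and Cyp51 by 0.48, 0.67 and 0.59 on the log2 scale, and BA10 replicate 3 below it for the same genes. A10 replicate 3 lay above its group mean for all 6 enzymes except Dhcr7, and below it for Scarb1. Without A10 replicate 3 and BA10 replicate 1, the correlation without removing group means was 0.57 between Hmgcs1 and Cyp51 (0.75 with them), 0.37 between Hmgcs1 and Idi1 (0.60 with them) and -0.25 between Idi1 and Cyp51, so the shared pattern of these 3 genes rests in part on these samples. Between Sqle and Fdft1 it was 0.80 with and without them. Fdft1 and Dhcr7, at different points of the same route, correlated with r = -0.70, and -0.63 without these samples. Of the 15 other synthesis enzymes, 8 correlated with Hmgcs1 and 8 with Cyp51 at r over 0.5, against 1 with Fdft1. The count was 4 for Idi1, 4 for Dhcr7, 2 for Sqle and 2 for Scarb1. These counts keep all 18 samples and the group means, and the share of all genes at that r was not computed.

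**Figure D4:**
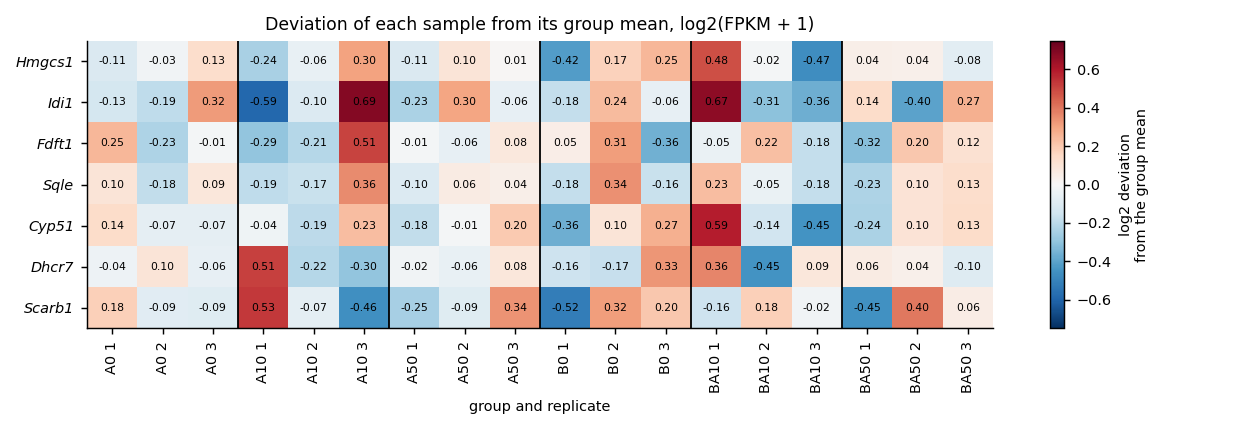
Deviation of each sample from its group mean on the log2(FPKM + 1) scale for the 7 genes, with red above and blue below the mean. BA10 replicate 1 is red for Hmgcs1 (0.48), Idi1 (0.67) and Cyp51 (0.59), and A10 replicate 3 is red for Idi1 (0.69) and blue for Scarb1 (-0.46).

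The genes most like each member over the 18 samples were found by the highest r among the genes tested that matched a symbol. The counts of genes with an r over 0.9 are over the same genes. For Hmgcs1 they were Fdps, farnesyl diphosphate synthase (r = 0.76), and Kcnk5, a potassium channel (r = 0.75), and for Cyp51 the same pair, Kcnk5 (r = 0.87) and Fdps (r = 0.84). For Idi1 they were Mblac1 (r = 0.79) and Insig1, a sterol sensor (r = 0.79), and for Sqle D16Ertd472e (r = 0.83) and Arhgap15 (r = 0.81). For Scarb1, Cry2, a circadian repressor, was among them (r = 0.91). Those of Dhcr7 were Pkdcc and Eda (both r = 0.88). Fdft1 was most like Cdkn3, a cell cycle phosphatase (r = 0.99), and Erich2 (r = 0.97), and 180 genes had an r over 0.9 with it, against 3 for Scarb1 and none for the other 5. The mean of the 7 genes was most like Kcnk5 (r = 0.83), Fdps (r = 0.82), Ssxa1 (r = 0.77), Gm38481 (r = 0.76) and Msmo1, a sterol demethylation enzyme (r = 0.76).

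Cell type markers moved with several of these genes. Each marker list was taken as the mean of its tested genes on log2(FPKM + 1). Cyp51 correlated with the Leydig cell markers with r = 0.75 over all samples and 0.62 within groups, and Hmgcs1 with r = 0.61 in each case. Within groups, r with the Leydig markers was 0.58 for Dhcr7, 0.53 for Idi1, 0.20 for Sqle, -0.03 for Scarb1 and -0.31 for Fdft1. Over all samples it was 0.48, 0.13, 0.17, 0.31 and -0.31 in the same order. The sum of the 8 Leydig markers was 719 to 1033 FPKM in A0 and 937 to 1660 FPKM in B0, and BA10 replicate 1, the highest sample for Cyp51 and Hmgcs1, had the highest sum of all (2287 FPKM). Star was called higher in the busulfan average (log2 change 0.75 ± 0.12, SE), and the 6 other Leydig markers tested were not called. Of all genes, 13.3% were called higher. Scarb1 correlated with the Sertoli cell markers (r = 0.76 over all samples and within groups, and 0.63 over all samples without A10 replicate 3). Idi1 did so inversely (r = -0.80 over all samples, -0.76 within groups and -0.61 over all samples without A10 replicate 3). Of 9 Sertoli markers tested, Ctsl and Inha were called higher in the busulfan average, against 13.3% of all genes. The sum of the 10 Sertoli markers ran from 899 to 2224 FPKM without busulfan and from 1896 to 3327 FPKM with it. Fdft1 correlated with the spermatid markers (r = 0.65 over all samples, 0.77 within groups) and inversely, within groups, with the spermatogonium markers (r = -0.79, but -0.04 over all samples). The sum of the 8 spermatid markers was 2435 to 4288 FPKM in A0, 2288 to 3374 FPKM in B0 and 5021 to 10893 FPKM in BA50. The part of these cell types in the levels of the 7 genes was not tested.

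**Figure D5:**
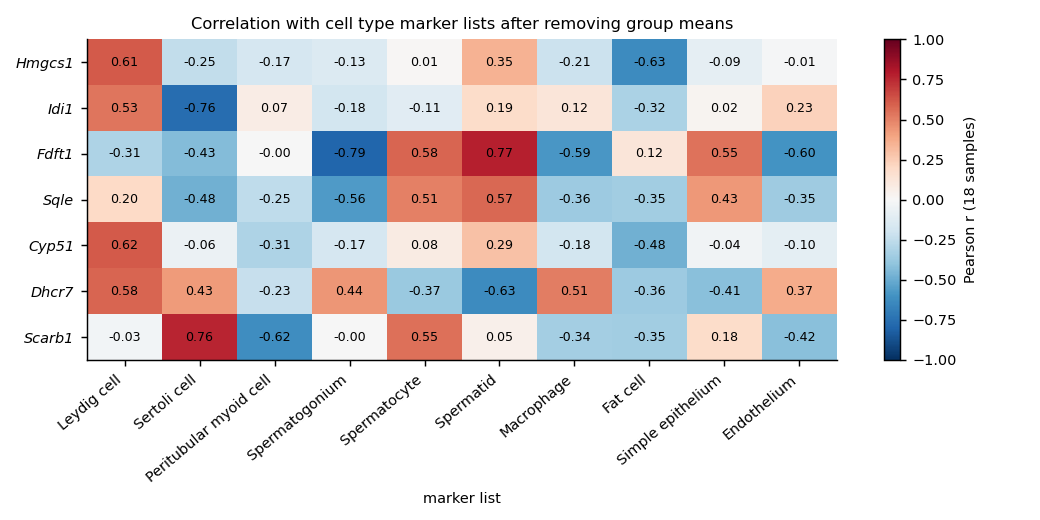
Pearson correlation over 18 samples, after removing group means, between each of the 7 genes and the mean of each cell type marker list on log2(FPKM + 1). Scarb1 with Sertoli markers (0.76) and Fdft1 with spermatid markers (0.77) are among the deepest red cells, and Idi1 with Sertoli markers (-0.76) and Fdft1 with spermatogonium markers (-0.79) among the deepest blue.

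All 6 fat cell markers tested were called higher in the busulfan average (13.3% of all genes were) and in B0 against A0 (1.47% of all genes were). None was called in BA10 against A10 or in BA50 against A50, with median log2 changes of 0.53 and 0.46. The fat cell markers correlated with Hmgcs1 at r = 0.02 over all samples and -0.63 within groups, and with Cyp51 at r = 0.17 and -0.48. B0 replicate 1, with the highest fat cell sum (805 FPKM), had the lowest values of its group for Hmgcs1, Idi1, Sqle, Cyp51 and Scarb1. The spermatocyte markers, which fell with busulfan, correlated with Idi1 at r = 0.43 over all samples and -0.11 within groups, and with Cyp51 at r = -0.51 and 0.08. In the busulfan average, 4 of 7 spermatogonium markers (Stra8, Dmrt1, Id4 and Kit) were called lower, against 24.8% of all genes. Called higher were 2 of 4 endothelium markers (Cdh5 and Pecam1) and 1 of 8 spermatid markers (Tssk6), against 13.3% of all genes. By limma none of 5 peritubular or 6 macrophage markers was called, with 0 of each at an unadjusted p under 0.05. Fdft1 correlated inversely with the macrophage markers (r = -0.68 over all samples and -0.59 within groups) and the endothelium markers (r = -0.66 and -0.60). The part of these cells in the busulfan difference of Cyp51 was not tested.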

How the data were processed

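RNA-seq of 18 samples of cultured ICR mouse testis was deposited by the authors as 1 table of FPKM values (fragments scaled to transcript length and library size) for 22657 genes, labelled by NCBI gene number in 20811 rows, of which 20656 matched a symbol. The submitters' processing notes name HISAT, Bowtie2, RSEM and GRCm38.p5, while the study's methods describe another aligner and RPKM, so the tool behind the values is not given in the sources used here. No read counts were used, so depth is unknown and no count model was run.

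The 15790 genes that reached 1 FPKM in 3 or more samples were tested with limma 3.58.1 (R 4.3.3) on log2(FPKM + 1), with a mean per group over all 6 groups, a trended variance, 12 residual degrees of freedom and Benjamini-Hochberg adjustment per comparison over all genes tested. A pseudocount of 1 understates changes of low genes. Fold changes are on that scale. The 10 comparisons were 3 of busulfan, their average, 4 AOS comparisons and 2 differences. The 7 genes, the pathway and marker lists and the rule for named genes (all 7, then per list up to 3 called genes in each direction or, with none called, the 2 most expressed, and the 2 genes most alike in pattern to each of the 7, 5 for their mean) were chosen with earlier results of these data known. The scripts were tested on simulated data. Some genes of these lists are not reported here.

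Whether replicate numbers pair samples was checked by correlating deviations from group means over genes. Every same-numbered pair correlated over 0.1 for B0 and BA50 (r = 0.562, 0.422 and 0.138) and for BA10 and BA50 (0.353, 0.674 and 0.442). The other groups compared had at least 1 pair under 0.1, among them A50 and BA50, whose pairs were all positive (0.037, 0.204 and 0.13). The replicate block is therefore given as an alternative. Gene positions and promoters are from RefSeq on GRCm38.p6. Python 3.11.15, pandas 2.3.3, NumPy 2.4.6 and matplotlib 3.10.9 were used.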

Additional observations from a re-analysis of the deposited data

How the results depend on the processing

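The counts of the 7 genes called were recomputed under other choices of pseudocount, filter, scaling, spread model, samples, call limits and the replicate block. Counts of 0 in the AOS comparisons, where few or no genes of the whole table were called, say nothing about stability. In the busulfan average (1 called), the count was 0 with the replicate block, with no filter, with a common FPKM sum, with the limits of the study's methods (adjusted p 0.001 and a log2 change of 1) and with AOS 10 and 50 only, and 2 (Cyp51 and Scarb1) with a filter at a mean of 5 FPKM or quantile normalization. In BA10 against A10 (0 called), it was 1 (Scarb1) with that filter or with quantile normalization. Leaving out 1 sample gave 0 to 2 in each of these comparisons. The replicate block changed no other call of the 7 genes, and in a fit of the busulfan samples only it gave 0 called for BA50 against B0. This last fit and the average over AOS 10 and 50 were added after seeing the data. For single genes, direction reversed for Hmgcs1 (-0.0085) and Sqle (-0.039) in the busulfan average over AOS 10 and 50 only, and for Idi1 in B0 against A0 with quantile normalization (0.014). When 1 sample was left out, the log2 change ran from -0.10 to 0.032 for Fdft1 and from -0.00094 to 0.16 for Hmgcs1 in the busulfan average, from -0.18 to 0.097 for Idi1 in B0 against A0, from -0.51 to 0.0085 for Idi1 and -0.014 to 0.40 for Scarb1 in BA10 against B0, and from -0.047 to 0.38 for Scarb1 in BA50 against A50. None of these was called, and the cause was not tested. With 3 samples a group, the precision is that of the intervals given, depth is unknown, and Cyp51 and Scarb1 sit at the limit of the test.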

Other observations

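In the samples without busulfan, all 9 Sertoli markers tested had negative log2 changes in A10 against A0 and in A50 against A0, with medians of -0.74 and -0.26. None was called by limma, as for 0% of all genes, and 5 and 1 had an unadjusted p under 0.05 (15.2% and 15.6% of all genes). A10 replicate 3, which stood apart, had a Sertoli sum of 899 FPKM against 1668 and 1779 FPKM in the other A10 samples. All 8 spermatid markers had positive log2 changes in BA10 against B0 and in BA50 against B0, with medians of 0.67 and 1.15. None was called by limma, against 0.0253% and 0.095% of all genes, and 3 and 6 had an unadjusted p under 0.05 (5.05% and 24.3% of all genes). Of the simple epithelium markers, Krt7, Krt8, Krt18 and Krt19 were called higher in B0 than in A0, against 1.47% of all genes. Krt7, Krt8 and Krt18 were called lower in BA10 and in BA50 than in B0, and Krt19 and Epcam were not called. The share of all genes called lower was 0.0253% in BA10 against B0 and 0.0887% in BA50 against B0. In the busulfan average Krt7, Krt8 and Krt18 were called higher and Epcam lower, against 13.3% of all genes higher and 24.8% lower. None of the 5 simple epithelium markers was called in BA10 against A10 or in BA50 against A50, with median log2 changes of -0.10 and -0.36. The higher Krt7, Krt8, Krt18 and Krt19 were thus called at AOS 0 but not at AOS 10 or 50.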
